A study of Homo sapiens with 2 samples.

Results

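Zinc finger genes on chromosome 19 were taken as the protein-coding RefSeq genes of that chromosome whose symbol starts with ZNF, and 250 of its 1451 protein-coding genes, out of 20037 in the genome, met this rule. The rule uses the symbol and the place of a gene and no measured value. The remaining 1201 protein-coding genes of chromosome 19 served for comparison. The data were the peaks of 1 anti-Flag chromatin immunoprecipitation (ChIP-seq, sequencing of the DNA fragments that an antibody pulls down with a protein) from A549-shETV4 cells, that is A549, an established line of human lung adenocarcinoma, with its own ETV4 reduced by a short hairpin RNA and with Flag-ETV4 supplied again by transfection. The 1 input library came from A549 cells as well and had no antibody. It enters only as the control of the peak caller, that is through the peak calls and their fold, p and q. With only 1 library of each kind, no test between conditions is possible and every interval covers the sampling of genes or fragments only. The peaks report the transfected, tagged protein in knockdown cells, and the labels and the methods name different Flag antibodies (Sigma and CST).

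ETV4 belongs to the PEA3 group of ETS transcription factors, which bind DNA through an ETS domain at sites with a GGAA core. ZNF genes mostly encode proteins with arrays of C2H2 zinc fingers, small folds held by a zinc ion that read short stretches of DNA, and many also carry a KRAB domain, which recruits TRIM28 (KAP1) and through it SETDB1, the enzyme that places the repressive H3K9me3 mark. The genes arose by tandem duplication and stand in clusters along chromosome 19, and many of the proteins silence retrotransposons. Their gene bodies and 3′ ends carry H3K9me3 in many cell types, whereas their promoters often do not.

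Many gene starts of the cluster on 19p12 resemble each other in sequence. To show this, the stretch from 80 bases before to 20 bases after the RefSeq start is printed for 6 genes of this cluster, which includes KRAB zinc finger genes of the primate lineage. Bases are given 5′ to 3′ on the strand of the gene, and capitals mark CCGGAAG, a 7-letter ETS site, or its reverse complement CTTCCGG. The regions on GRCh38 (RefSeq, GRCh38.p14) were ZNF43 chr19:21836163-21836262 (-), ZNF85 chr19:20923171-20923270 (+), ZNF91 chr19:23395452-23395551 (-), ZNF208 chr19:22010924-22011023 (-), ZNF681 chr19:23758872-23758971 (-), ZNF93 chr19:19900866-19900965 (+).
ZNF43: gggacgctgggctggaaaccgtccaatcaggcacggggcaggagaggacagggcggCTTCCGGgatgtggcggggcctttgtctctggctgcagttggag
ZNF85: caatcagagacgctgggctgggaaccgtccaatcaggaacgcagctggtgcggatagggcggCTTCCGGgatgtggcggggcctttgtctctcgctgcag
ZNF91: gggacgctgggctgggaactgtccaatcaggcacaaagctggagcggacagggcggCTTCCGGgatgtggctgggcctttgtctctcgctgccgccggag
ZNF208: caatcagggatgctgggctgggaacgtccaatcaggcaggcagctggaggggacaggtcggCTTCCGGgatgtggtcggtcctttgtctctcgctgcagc
ZNF681: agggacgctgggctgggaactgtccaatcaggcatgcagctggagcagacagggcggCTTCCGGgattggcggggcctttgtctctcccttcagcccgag
ZNF93: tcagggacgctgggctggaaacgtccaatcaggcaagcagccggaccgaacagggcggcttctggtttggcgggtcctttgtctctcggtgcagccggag
The first 5 hold the ETS site at almost the same place, from 15 to 21 bases before the start, inside a stretch that also has a CCAAT box (CCAATCA) farther upstream. In ZNF93, which represses L1 retrotransposons, the surrounding letters are alike but the 7 letters are absent. The measured peaks over these windows had different folds all the same. They reached 11.6-fold at ZNF43, 3.66-fold at ZNF85, 9.73-fold at ZNF91 (a repressor of SVA retrotransposons), 5.45-fold at ZNF681 and 7.16-fold at ZNF93, and there was none at ZNF208. The summits held 15 fragments at ZNF85 (exact Poisson interval 8.4 to 24.7) and 21 at ZNF681 (13.0 to 32.1). ZNF93 had 23 fragments (14.6 to 34.5) and ZNF91 had 35 (24.4 to 48.7). These intervals overlap, so by fragments these genes were not set clearly apart. The start shown for ZNF43 lies inside the outermost gene end, where that gene had another peak of 16.6-fold.

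The same stretch is printed for the 4 genes with the highest fold and for ZNF564, ZNF530 and ZNF461, which stood high among their neighbours, in the regions ZNF682 chr19:20039486-20039585 (-), ZNF562 chr19:9675081-9675180 (-), ZNF507 chr19:32345530-32345629 (+), ZNF101 chr19:19668759-19668858 (+), ZNF564 chr19:12551463-12551562 (-), ZNF530 chr19:57599805-57599904 (+), ZNF461 chr19:36666818-36666917 (-).
ZNF682: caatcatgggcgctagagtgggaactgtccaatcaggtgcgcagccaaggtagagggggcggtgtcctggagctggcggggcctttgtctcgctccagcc
ZNF562: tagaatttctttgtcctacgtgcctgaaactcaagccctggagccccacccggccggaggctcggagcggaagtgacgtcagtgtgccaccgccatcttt
ZNF507: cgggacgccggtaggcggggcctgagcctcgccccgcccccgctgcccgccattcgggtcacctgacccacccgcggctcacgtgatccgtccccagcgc
ZNF101: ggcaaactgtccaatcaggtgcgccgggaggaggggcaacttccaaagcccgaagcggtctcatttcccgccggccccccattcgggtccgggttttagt
ZNF564: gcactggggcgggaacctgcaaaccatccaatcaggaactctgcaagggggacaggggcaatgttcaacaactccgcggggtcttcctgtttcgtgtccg
ZNF530: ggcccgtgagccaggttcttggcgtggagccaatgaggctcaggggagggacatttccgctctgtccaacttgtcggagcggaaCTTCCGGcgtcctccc
ZNF461: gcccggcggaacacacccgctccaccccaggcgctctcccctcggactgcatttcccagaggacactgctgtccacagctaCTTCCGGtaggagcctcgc
Of these 7 stretches, those of ZNF530 and ZNF461 hold the 7 letters, at 7 and 4 bases after the start. The start of ZNF682 shown here, the outer one of a pair, has the CCAAT box but not the 7 letters, and the inner start has 1 copy 101 bases before it. Its surrounding letters are like those of the 6 genes above, and ZNF101 and ZNF564 carry the CCAAT box as well. The stretches of ZNF562, ZNF507, ZNF101 and ZNF564 do not hold the 7 letters. A GGAA core, or its reverse complement TTCC, is present in those of ZNF682, ZNF562, ZNF101 and ZNF564 and absent from that of ZNF507. At ZNF562 the core lies within CGGAAGT, a word that overlaps the same kind of site.

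Of the 250 ZNF genes, 167 had an anti-Flag peak at one of their ends (no more than 1 kb away), a share of 66.8% (95% Wilson interval 60.8% to 72.3%). The share over all protein-coding genes, the background, was 62.1%, and that over the other genes of chromosome 19 was 62.2% (747 of 1201, 59.4% to 64.9%). The difference between the ZNF genes and the other genes of the chromosome was 4.602 percentage points with a 95% interval from -2.03 to 10.8, which includes 0. With a window of 0.5 kb it was 8.05 points (1.38 to 14.3) and with summits in place of peak intervals 8.98 points (2.29 to 15.3), both of which exclude 0, so this reading depends on how a peak is assigned. With peaks of more than 10-fold the shares were nearly equal, 41.6% (104 genes) against 41.8% on the rest of the chromosome and a background of 45.2%.

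Where a peak was present, its fold had a lower median than at other genes, by intervals that overlapped slightly on the same chromosome. The fold is the number of immunoprecipitated fragments at the summit plus 1 over the scaled input level plus 1, as the peak caller computes it. The strongest end peak of the 167 genes had a median of 12.5-fold (quartiles 6.77 and 23.8), with an interval of the median from 10.6 to 14.9. The median was 15.7-fold for the other genes of the chromosome (14.4 to 16.8) and 17.6-fold for all protein-coding genes with an end peak, and 110 of the 167 genes lay below the latter. The summit pileup recovered from the fold and the p-value had a median of 45 fragments at the ZNF genes and 49 at the other genes, with input levels of 2.35 and 2.36, so the pair of medians lay closer by fragments than by fold. Folds over 50 were reached by 8 ZNF genes (3.20%, 1.63% to 6.19%) and by 5.16% of the other genes (4.05% to 6.56%).

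**Figure D1:**
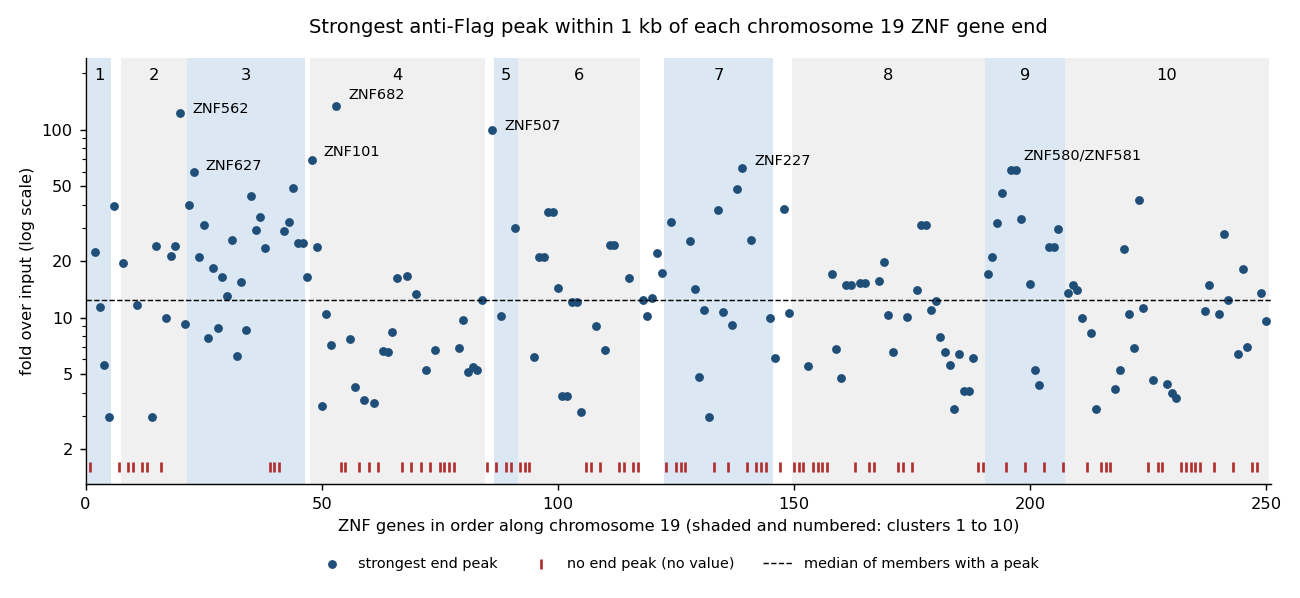
Each point is a ZNF gene in its order along chromosome 19 and shows the fold over input of its strongest peak within 1 kb of either end, on a log scale. Red ticks mark the 83 genes without such a peak, the dashed line is the median of the genes with a peak (12.5-fold), and the numbered shading marks the 10 clusters. Many high folds stand singly among lower ones, whereas ZNF226 with ZNF227 and ZNF580 with ZNF581 are neighbours, the latter with 1 shared peak. Genes without a peak occur in every cluster.

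The 10 highest values belonged to genes from 5 clusters and to 1 gene outside any. ZNF682 had a peak of 133-fold at chr19:20038775-20039736, with 402 fragments at its summit (exact Poisson 95% interval 364 to 443) over an input level of 2.03. ZNF562 reached 123-fold with 328 fragments (294 to 366) at chr19:9673997-9675530. ZNF507 reached 99.3-fold and had the highest pileup of all ZNF genes, 601 fragments (554 to 651), over an input level of 5.06. These 3 peaks exceeded 99% of the strongest end peaks of all protein-coding genes, and each had its summit 208 to 261 bp inside the gene, downstream of the 5′ end. ZNF101 followed with 69.2-fold and 257 fragments, ZNF227 with 62.4-fold and 335 fragments, and ZNF627 with 59.9-fold and 227 fragments. ZNF580 and ZNF581 shared 1 peak of 60.9-fold and 138 fragments that spans chr19:55640707-55644804 and covers the whole of ZNF580, a gene of 2469 bp. ZNF564 had 48.9-fold with 263 fragments, and ZNF226 had 48.4-fold with 276. With the input level held fixed, the pileup interval of ZNF101 corresponds to 61.0-fold to 78.1-fold and overlaps those of ZNF227, ZNF580 with ZNF581, and ZNF627. It lies above those of ZNF564 and ZNF226, which end at 55.2-fold and 54.4-fold.

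At the other end of the list, 22 genes had a strongest peak of under 5-fold. The lowest 5 were ZNF222 (2.97-fold, 26 fragments over an input level of 8.10), ZNF77 (2.97-fold, 12 fragments), ZNF177 (2.98-fold, 6 fragments), ZNF420 (3.17-fold, 15 fragments) and ZNF845 (3.27-fold, 10 fragments). ZNF420 encodes a repressor of p53 activity. Such peaks rest on few fragments, with intervals for ZNF177 from 2.2 to 13.1 fragments and for ZNF845 from 4.80 to 18.4.

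The genes whose proteins have a described role were spread over the whole range. ZNF274, whose protein brings SETDB1 to the 3′ ends of other zinc finger genes, had a peak of 27.9-fold with 74 fragments (58.1 to 92.9), whose summit lay 856 bp downstream of its 5′ end. ZNF382, a KRAB repressor, shared a peak of 20.9-fold and 133 fragments with its divergent neighbour ZNF529. ZNF568, the gene of a KRAB protein whose mouse counterpart represses a placental Igf2 transcript, had 12.1-fold with 64 fragments and shared that peak with ZNF829. ZNF473, whose protein takes part in histone mRNA processing, had 10.6-fold with 32 fragments and another peak of 8.93-fold at the same end. ZNF91 had 9.73-fold with 35 fragments, ZNF383 had 9.03-fold with 45, ZNF93 had 7.16-fold with 23, and ZNF675, whose protein binds TRAF6, had 5.14-fold with 18. No end peak was called at ZNF350, whose protein is a BRCA1-binding repressor, at ZNF331, an imprinted gene, or at ZNF304, and the nearest peak was 36.7, 70.7 and 3.34 kb from their ends. ZNF536 had no peak at its outer ends either, but a peak of 36.9-fold with 123 fragments covered listed starts farther inside the gene.

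The genes without an end peak were not all far from one. The distance from the nearest end to the nearest peak had a median of 14.02 kb over the 83 genes and ranged from 1.16 to 113 kb, and 19 genes had a peak within 5 kb. A peak inside the gene body, away from both ends, was present in 26 of the 83. Of the 67 such genes with listed starts, 17 had a peak within 1 kb of a start inside the gene, with folds from 5.78 to 54.5 and a median of 13.02. The highest was at ZNF799, 54.5-fold with 127 fragments (106 to 151), which by fold would stand among the 10 strongest of the family. In all, 88 peaks overlapped the body of a ZNF gene away from ZNF gene ends, with a median of 9.39-fold.

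The peaks stood at the 5′ ends. RefSeq start sites with their strand were at hand for 219 of the 250 genes and for 966 of the other genes of the chromosome. A peak lay within 1 kb of the 5′ end of 151 of the 219 ZNF genes, 68.9% (62.5% to 74.7%), against 59.5% of the other genes (56.4% to 62.6%) and a background of 61.3%. The difference of 9.43 points had an interval from 2.33 to 15.98. Restricted to genes longer than 10 kb, the shares were 68.9% and 64.4%, and the difference of 4.52 points had an interval from -3.30 to 11.8. With any start that RefSeq lists, in place of the outermost one, the share rose to 76.7% for the ZNF genes and to 62.3% for the other genes.

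The 3′ ends went the other way. A peak this close to the 3′ end was present at 10 of the 219 ZNF genes, 4.57% (2.50% to 8.20%), against 19.3% of the other genes of the chromosome (16.9% to 21.9%) and a background of 9.56%. The difference was -14.7 points (-18.0 to -10.4), and among genes longer than 10 kb it was -13.3 points (-16.9 to -8.78), with shares of 3.11% and 16.4%. Without peaks that also lay within 1 kb of a listed start of any gene, 4 ZNF genes (1.83%) and 109 other genes (11.3%, 9.44% to 13.4%) kept a 3′ peak. Of the 31 genes whose strand was not at hand, 15 had a peak at an end, which could not be assigned to the 5′ or the 3′ side.

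**Figure D2:**
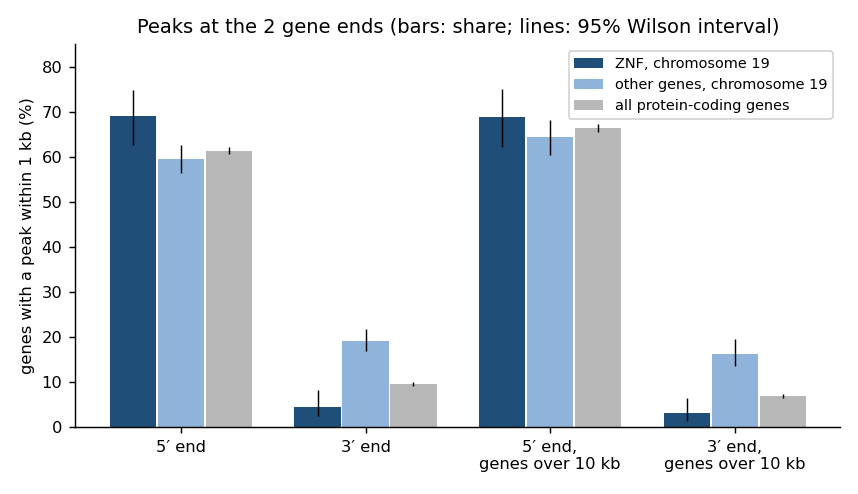
Bars give the share of genes with a peak within 1 kb of the 5′ or the 3′ end, in percent, for ZNF genes of chromosome 19, the other protein-coding genes of that chromosome and all protein-coding genes, and lines are 95% Wilson intervals. At the 5′ end the ZNF share is the highest of the groups (68.9%), and at the 3′ end it is the lowest (4.57%), also among genes longer than 10 kb.

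Of the 10 genes with a 3′ peak, 7 had an end of another gene within 2 kb. The peak at the 3′ end of ZNF766 (14.9-fold) lay at an end of ZNF480, that of ZNF880 (15.3-fold) at the start of ZNF528, that of ZNF324 (9.64-fold) at an end of ZNF446, and that of ZNF628 (17.1-fold) within 2 kb of NAT14. ZNF880 was the only one of the 10 with no peak at its outermost 5′ end. A peak of 5.95-fold had its summit 63 bp before the listed start of that gene. ZNF526 had 17.4-fold at its 5′ end and 4.79-fold at its 3′ end, near GSK3A, the gene of a glycogen synthase kinase. ZNF581 had 20.4-fold at its 5′ end and, at its 3′ end, the wide peak of 60.9-fold that covers ZNF580. Apart from that wide peak, the strongest 3′ peak with no other gene end within 2 kb was that of ZNF653, 39.7-fold with 119 fragments (98.6 to 142), compared with 5.49-fold at its 5′ end. ZNF561 had 5.69-fold at the 3′ end with 12 fragments (6.20 to 20.96), and ZNF701 had 8.76-fold with 19 fragments near the pseudogene ZNF137P.

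At the 5′ ends, the summits gathered close to the start. The summit of the strongest 5′ peak lay a median of 117 bp downstream of the outermost start (quartiles -15.5 and 250 bp), and 72.9% of the 151 summits fell within 300 bp of it, compared with 53.7% of the 575 summits at other genes of the chromosome. The difference of 19.1 points had an interval from 10.5 to 26.8.

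**Figure D3:**
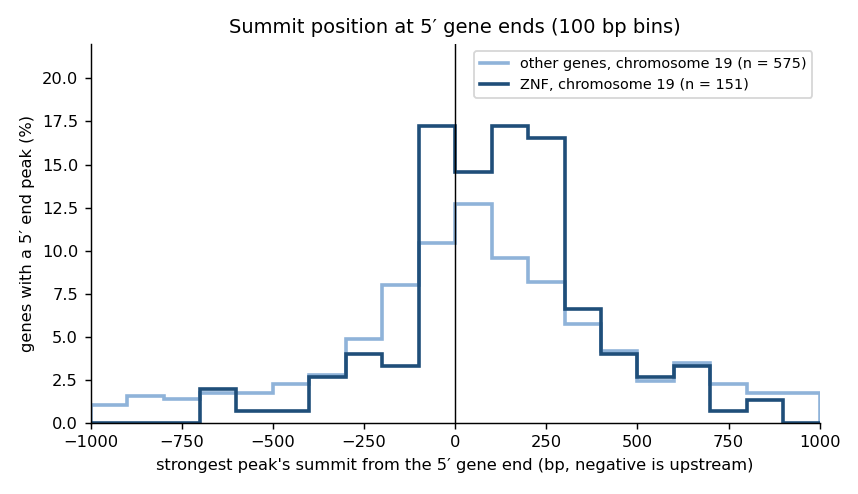
The lines give, in bins of 100 bp, the percent of genes with a 5′ peak whose strongest summit falls at each distance from the 5′ gene end (negative is upstream), for 151 ZNF genes and 575 other genes of chromosome 19. The ZNF summits concentrate from 100 bp upstream to 300 bp downstream, and those of the other genes are spread more widely.

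Some of the genes share their peaks. The 167 genes with an end peak drew on 172 distinct peaks, and 14 peaks stood at the ends of 2 or more ZNF genes, which involved 26 genes. The strongest shared peaks were those of ZNF580 and ZNF581 (60.9-fold), ZNF461 and ZNF567 (36.5-fold), ZNF816 and its read-through gene ZNF816-ZNF321P (31.1-fold), ZNF490 and ZNF791 (24.9-fold) and ZNF569 and ZNF570 (24.3-fold). Among the 219 genes with strand, 19 had the start of another protein-coding gene within 1 kb on the opposite strand, and 17 of these 19 had a 5′ peak (89.5%, 68.6% to 97.1%) with a median of 23.7-fold. Of the other 200 genes, 134 had one (67.0%, 60.2% to 73.1%), with a median of 11.1-fold. The divergent genes mostly form pairs with 1 peak between them, so the 17 values are not independent. Over all protein-coding genes with strand, 61.3% had a 5′ peak. The split by a divergent start was made for ZNF genes only, so whether it is particular to them was not tested. The strongest end peak was also at the end of a non-ZNF protein-coding gene in 11 cases and of a lncRNA gene in 27.

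Runs of at least 5 ZNF genes with gaps of at most 500 kb gave 10 clusters with 236 of the genes, numbered here from the short-arm telomere, and 14 genes lay outside. Within the cluster spans, the genes that are not ZNF genes had an end peak in 34 of 86 cases, 39.5% (29.9% to 50.1%), against 66.1% of the ZNF genes of the clusters (59.9% to 71.8%), a difference of 26.6 points (14.3 to 37.8). Outside the spans, 63.9% of the other genes had one. The pooled gap did not hold in every cluster. The non-ZNF share was below the ZNF share in clusters 2, 3, 4, 8, 9 and 10, but above it in clusters 6 (3 of 4 genes) and 7 (6 of 10). The peaks were sparsest in the largest span, with 11.4 peaks per Mb in cluster 4 against 44.0 over the chromosome. The other clusters ranged from 20.7 in cluster 6 to 44.3 in cluster 7, and the number of genes per Mb was not taken into account.

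The medians of the clusters ranged from 7.04-fold to 24.9-fold. The highest share was in cluster 3 on 19p13.2 (ZNF653 to ZNF791, chr19:11483429-12633834), where 22 of 25 genes had an end peak, 88.0% (70.0% to 95.8%), with a median of 24.9-fold and quartiles of 15.7 and 32.0. The lowest median among the clusters was in cluster 4 on 19p12 (ZNF101 to ZNF254, chr19:19668153-24129968), where 24 of 37 genes had one, 64.9% (48.8% to 78.2%), with a median of 7.04-fold and quartiles of 5.28 and 12.7. The quartile ranges of clusters 3 and 4 did not overlap, and the median summit pileups were 88.5 and 25 fragments over input levels of 2.70 and 2.35. Folds over 10 were reached by 18 of 25 genes in cluster 3 and by 8 of 37 in cluster 4.

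In cluster 3 the values ran from 6.25-fold at ZNF433 to 59.9-fold at ZNF627, with ZNF564 (48.9-fold), ZNF20 (44.2-fold), ZNF653 (39.7-fold), ZNF136 (34.3-fold) and ZNF709 (32.2-fold) near the top. The 3 genes without a peak at their outer ends were ZNF563, ZNF442 and ZNF799, and each had one near a listed start inside the gene, of 6.29-fold, 20.4-fold and 54.5-fold. In cluster 4 the highest folds were those of ZNF682 (133-fold) and ZNF101 (69.2-fold), followed at a distance by ZNF14 (23.9-fold), ZNF43 (16.6-fold) and ZNF429 (16.2-fold), and the lowest were those of ZNF714 (3.5-fold, 7 fragments) and ZNF506 (3.38-fold, 7 fragments). Of the 13 genes of cluster 4 without an end peak, 12 had no peak within 20 kb, and the nearest was 113 kb from ZNF66, 108 kb from ZNF99 and 104 kb from ZNF98.

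The medians of the other clusters lay between these, whereas their shares and pileups did not all do so. Cluster 9 on 19q13.4 (ZNF628 to ZNF835) had a peak at 13 of 17 genes with a median of 23.7-fold, with ZNF580 and ZNF581 at 60.9-fold, ZNF865 at 45.9-fold and ZNF787 at 33.4-fold. Cluster 2 (ZNF414 to ZNF846) had 9 of 14 with a median of 19.5-fold, led by ZNF562, and cluster 7 (ZNF575 to ZNF180) had 13 of 23 with a median of 14.3-fold, led by ZNF227 and ZNF226. Cluster 6 (ZNF565 to ZNF573) had 16 of 26 with a median of 13.2-fold, led by the shared peak of ZNF461 and ZNF567. The large clusters 8 (ZNF175 to ZNF331) and 10 (ZNF264 to ZNF446) had 26 of 41 and 27 of 43 with medians of 10.2-fold and 10.4-fold, led by ZNF816 with its read-through gene (31.1-fold) and by ZNF530 (42.5-fold). The small clusters 1 (ZNF554 to ZNF77) and 5 (ZNF302 to ZNF792) had 4 of 5 and 2 of 5, led by ZNF555 (22.3-fold) and ZNF792 (29.9-fold). The intervals of the shares of all 10 clusters overlapped. Of the 14 genes outside the clusters, 11 had a peak, with a median of 16.5-fold, from 6.09-fold at ZNF296 to 99.3-fold at ZNF507.

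Inside each of the large clusters the values spread widely. In cluster 8 they ran from 3.27-fold to 31.1-fold with quartiles of 6.19 and 15.2, and in cluster 10 from 3.28-fold to 42.5-fold with quartiles of 5.82 and 13.8, and both upper quartiles lay below the median of cluster 3. In cluster 7 they ran from 2.97-fold to 62.4-fold, at ZNF222 and ZNF227, both from the same stretch of chr19:43530835-44500522. Folds over 10 were reached by 14 of 41 genes in cluster 8, 14 of 43 in cluster 10, 10 of 26 in cluster 6, 9 of 23 in cluster 7 and 11 of 17 in cluster 9. The genes without an end peak lay a median of 22.2 kb from the nearest peak in cluster 8, 16.4 kb in cluster 10, 22.7 kb in cluster 6 and 10.8 kb in cluster 7, compared with 41.2 kb in cluster 4. A distance of more than 20 kb was found for 10 of 15 such genes in cluster 8, 6 of 16 in cluster 10 and none in clusters 2 and 3.

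The input level under the peaks moved with the clusters. Its median was 4.73 in clusters 5, 6 and 7, between 1.36 and 1.69 in clusters 8, 9 and 10, and 2.35 in cluster 4. The fold divides by this level, and its part in the differences between clusters was not tested. By the median pileup the order was different, with 107 fragments in cluster 5, 105 in cluster 7, 88.5 in cluster 3, 76 in cluster 6, 73 in cluster 9, 63 in cluster 2, 25 in clusters 4 and 8, 24 in cluster 10 and 21 in cluster 1. The medians of cluster 5 rest on only 2 genes with a peak and those of cluster 1 on 4.

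**Figure D4:**
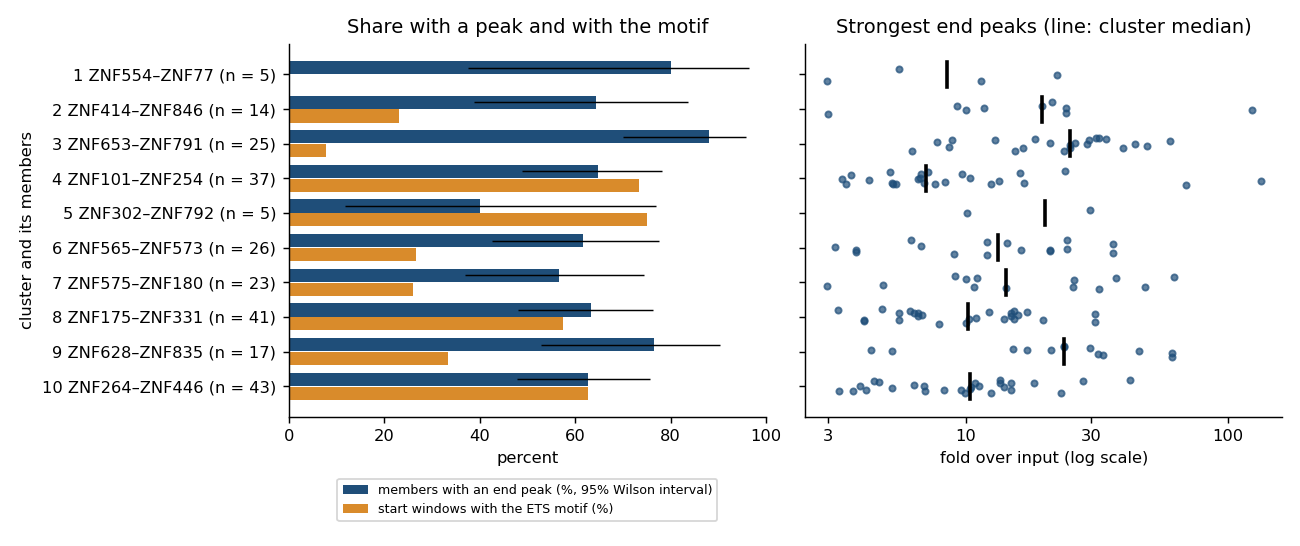
On the left, blue bars give the percent of genes in each of the 10 clusters with an end peak (lines are 95% Wilson intervals) and orange bars the percent of RefSeq start windows that hold CCGGAAG. On the right, points give the fold of each gene's strongest end peak on a log scale, and black lines the cluster medians. Cluster 3 has the highest share and a median of 24.9-fold with few windows that hold these exact letters, and cluster 4 a median of 7.04-fold with many.

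The 219 genes with listed starts had 271 windows of 300 bases, from 250 before to 50 after a start. CCGGAAG, searched on both strands, was present in 111 of these windows, 41.0% (35.3% to 46.9%). The same letters were in 13.2% of the 1277 windows of the other genes of the chromosome (11.4% to 15.1%), in 12.8% of the windows of all protein-coding genes and in 10.3% of all windows of the table. The difference within the chromosome was 27.8 points (21.8 to 34.0). This interval treats windows as independent, although some overlap, some genes have several, and many starts of a cluster resemble each other. It is therefore likely too narrow. Clusters 4, 8 and 10 held 22, 27 and 27 of the 111 windows with the motif. The 6-letter core CCGGAA, which lies within the 7 letters, was in 51.3% against 21.5%, and the longer CCGGAAGT in 17.7% against 4.31%. The AP-1 site TGANTCA, which shares no letters with the ETS core, was in 6.64% against 4.70%, a difference of 1.94 points (-0.787 to 5.70). Among the 8189 words of 7 letters that were counted, CCGGAAG had the largest gap between ZNF and other windows. The next included the words ACTTCCG and CGGAAGC, which overlap the same site, and CCAATCA, the CCAAT box, with 24.4% against 8.07%.

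The windows of the ZNF genes had nearly the same median number of CpG as the other windows of the chromosome, with a narrower spread. They held a median of 20 CpG (quartiles 14 and 26) and 60.0% GC, compared with 21 CpG (9 and 31) and 64.3% GC in the other windows. ZNF windows were less often poor in CpG, as 73 of 271 had fewer than 15, against 474 of 1277. In windows with fewer than 15 CpG, the motif was in 42.5% of 73 ZNF windows (31.8% to 53.9%) and 5.49% of 474 other windows (3.77% to 7.92%), and a peak covered 52.1% and 17.7% of them. In windows with 25 CpG or more, the motif was in 42.7% and 18.97%, and a peak covered 74.4% and 80.1%.

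**Figure D5:**
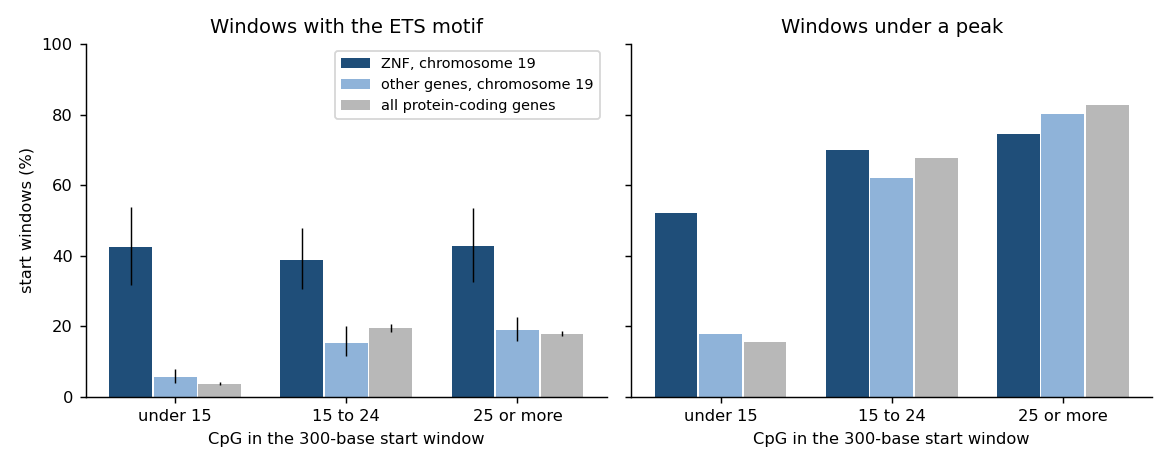
Bars give the percent of 300-base start windows that hold CCGGAAG (left, with 95% Wilson intervals) and the percent under a peak (right), in 3 classes of CpG number, for ZNF genes, other genes of chromosome 19 and all protein-coding genes. The motif share of the ZNF windows is about the same in each class (38.8% to 42.7%), and the ZNF windows stand above the others under a peak in the class under 15 CpG (52.1% against 17.7%).

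The copies sat at the start. Some windows overlap, so that the 125 copies counted over windows were 115 distinct copies. Measured from the nearest listed start, these had a median position 15 bases before it (quartiles 33 before and 4 after), and 89.6% lay between 100 bases before and 50 after it. Of the 66 ZNF windows with a summit inside, 36 held a copy. In these 36 the summit lay a median of 23 bp from the nearest copy, within 50 bp in 26 of them (72.2%). Only summits inside a window were scored, whereas a peak covered 82 of the 111 windows with a copy. Summits more than 50 bases after a listed start were thus left out of its window. As most copies also lie near the start, short distances were favoured in advance, and no background distance is given. The distances therefore cannot show whether summits follow the copies.

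Windows with a copy were more often under a peak. A peak covered 82 of 111 ZNF windows with the motif, 73.9% (65.0% to 81.2%), and 98 of 160 without, 61.3% (53.5% to 68.5%), a difference of 12.6 points (1.20 to 23.2). For the other genes of the chromosome the shares were 82.7% and 48.4%, a difference of 34.3 points (27.3 to 40.1). CpG moved with the motif at those genes, with medians of 19 CpG without and 26.5 with a copy, but hardly at the ZNF genes, with 20 and 21. Within CpG classes, the differences at ZNF genes were -6.38 points under 15 CpG (-27.96 to 16.00), 20.3 points from 15 to 24 (3.17 to 34.7) and 19.8 points at 25 or more (0.555 to 36.1). At the other genes they were 38.2 points (19.5 to 55.9), 22.99 points (7.72 to 33.9) and 13.4 points (5.18 to 19.3), so the intervals of the groups stood apart only in the class under 15 CpG. In cluster 4, where 22 of 30 windows held the motif and many starts are alike, the median was 10 CpG. The classes were not split by cluster, so how far the class under 15 CpG rests on these windows was not tested. The fold went the other way at the ZNF genes, with a median of 12.1-fold with the motif and 17.3-fold without, whereas the other genes had 16.3-fold and 16.2-fold. Here a window without the motif lacks only the exact letters CCGGAAG and may hold another ETS site. Such windows with CGGAAGT included those of ZNF562, ZNF561, ZNF266 and ZNF121, which were under a peak, and that of ZNF560, which was not. Of the 13 ZNF windows with 2 or more copies, 12 were under a peak, with a median of 19.9-fold. Among the 8 ZNF genes with folds over 50, 2 had the motif at a listed start.

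The split differed between the clusters. In cluster 3 the motif was in 2 of 26 windows (7.69%), and 23 of the 24 windows without it were under a peak, with a median of 23.6-fold. In cluster 4 it was in 22 of 30 windows (73.3%), of which 12 were under a peak with a median of 7.41-fold, and 5 of the 8 windows without it had one, with a median of 23.9-fold. The CCAAT box word was common in both, in 84.6% of the windows of cluster 3 and 96.7% of those of cluster 4, compared with 24.4% of all ZNF windows. In cluster 8, 19 of 27 windows with the motif and 7 of 20 without were under a peak, and in cluster 10 these were 21 of 27 and 5 of 16. Taking the clusters and the genes outside them one at a time, 8 groups had at least 3 windows of each kind. The share under a peak was higher with the motif in 7 of the 8, cluster 4 being the exception, and the median fold was higher with the motif in 3 of the 8.

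Near-identical starts could split or lose reads between genes. The longest exact run that a ZNF window shared with the window of another ZNF gene had a median of 18 bases over the 271 windows, 38 bases in cluster 4 (at most 46) and 22.5 in cluster 3. Runs of 50 bases or more were found in 7 windows, and the longest was 73 bases. The read length and the treatment of reads with several matches are not given in the sources used here, and their part in the low folds of cluster 4 was not tested.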

How the data were processed

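The data were 1 anti-Flag immunoprecipitate and 1 input of A549 cells, and the former has the peak list analysed here. The authors deposited it in narrowPeak layout, with a ratio (fold over the control), −log10 p and −log10 q at each summit. The deposited display score, which the peak caller derives from q, was not used. The submitters' processing notes name Bowtie2 2.4.1, SAMtools, MACS2 2.2.7.1, deepTools 3.5.0 and the builds hg38 and GRCh38, with no settings. Peaks were called on the 1 library without pooling, and the handling of duplicate reads is not given in the sources used here.

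Genes and starts came from RefSeq (GRCh38.p14). A peak was assigned to a gene end when its interval came within 1 kb. The summit pileup and the input level were solved from fold and −log10 p under the caller's Poisson model with a pseudocount of 1. The solved pileups were whole numbers to within 0.00914, and the lowest input level in the list was 1.28, a floor. Shares have Wilson intervals, differences of shares Newcombe intervals built from them, medians order-statistic intervals and pileups exact Poisson intervals, all at 95%. They treat genes, start windows and fragments as independent and cover counting error only. Overlapping windows and starts alike in sequence make those over windows likely too narrow. The pileups at ZNF gene ends ranged from 6 to 601 fragments, which sets the precision of a single peak. Solver, overlap and motif search were tested on simulated data. The members, clusters, gene lists and motifs were chosen with earlier results of these data known, and CCAATCA after the word counts had been seen. Named genes were the 10 highest and 5 lowest by fold, the top of each cluster, those with peaks at both ends or the 3′ end, and those of described role. The remaining genes of clusters 3 and 4, and the genes in the printed sequences, were chosen after their values were seen. Alternatives changed the window, peak threshold, members, comparison genes, cluster gap and motif. Protein sequences were not used here. Software was scipy 1.17.1, pandas 2.3.3 and numpy 2.4.6 under Python 3.11.15, with matplotlib 3.10.9 for plots.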

Additional observations from a re-analysis of the deposited data

How the results depend on the processing

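No paired analysis was possible because there was 1 immunoprecipitate and the results come from no test. The share of ZNF genes with an end peak was 58.0% with peaks over 5-fold, 41.6% over 10-fold and 52.0% with −log10 q of at least 10, and those of the other genes of the chromosome were 55.5%, 41.8% and 52.8%. The ZNF share was above that of the other genes at 5-fold and not at the other thresholds. The share of the other genes was 57.95% with a window of 0.5 kb, 67.1% with 2 kb, 56.6% with summits in place of intervals and 39.5% among genes within the cluster spans, whereas the ZNF share was between 65.6% and 70.0% under the first 3 of these. The interval of the difference excluded 0 with 0.5 kb and with summits, and included it in the other settings that both shares have. Taken as the highest summit pileup of a gene, the medians were 45 fragments for ZNF genes and 50 for the others. The share with a 5′ peak was 42.0% over 10-fold and 76.7% with any listed start. The share with a 3′ peak was 2.28% with a window of 0.5 kb and 1.83% without peaks at a gene start. The motif share was 51.3% with the 6-letter core and 17.7% with 8 letters. With peaks over RefSeq start windows the highest cluster was cluster 5, with 4 of 4 windows (100%), in place of cluster 3. With peaks over 10-fold the lowest was cluster 4 (21.6%) in place of cluster 5. The use of start windows, any listed start, genes over 10 kb and the 8-letter site were chosen after seeing the data. The depth limits weak peaks most, and with no replicate the spread between experiments is unknown.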

Other observations

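The C2H2 zinc finger genes of chromosome 19 with other family symbols (ZFP, ZSCAN, ZKSCAN, ZIM, ZIK, ZBTB and PEG3, without the ZFP36 genes) had an end peak in 8 of 18 cases, 44.4% (24.6% to 66.3%), with a median of 19.1-fold. The peaks inside the cluster spans were not all at gene ends. In cluster 2, 17 of 52 peaks were at a protein-coding gene end (32.7%), in cluster 7 these were 16 of 43 (37.2%), and in cluster 10 they were 35 of 48 (72.9%).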
